A study of Mus musculus with 8 samples.

Results

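The cytosolic ribosomal protein genes were followed in mouse CD8+ T cells treated with DADA. Members were the rows whose symbol was Rpl or Rps followed by a number, with at most one of the endings a, x, l, al or l1, together with *Rpsa*, *Rplp0*, *Rplp1* and *Rplp2*. This gave 84 of the 22520 rows of the expression table, of which 76 are the standard proteins of the ribosome and 8 are paralogs (related gene copies) with the endings l, al or l1. The rule used symbols alone, and no measured value, but the family was chosen with earlier results of these data known. Of the 84 members, 81 had at least 1 FPKM in 4 or more libraries, the filter that left 10666 genes to test.

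Splenic CD8+ T cells of wild-type mice, in the methods male C57BL/6J mice of 6 to 8 weeks, were purified by negative selection and kept under continuous stimulation with antibodies to CD3 and CD28 and with IL-2 for 6 days, a culture model of T cell exhaustion. From day 3 to day 6 the medium held 40 µM DADA (diisopropylamine dichloroacetate, an inhibitor of pyruvate dehydrogenase kinase) or an equal volume of the solvent DMSO, so both groups carried the stimulation and only the compound differed. Bulk RNA-seq was done on 4 biological replicates of each group, and whether the replicates of a group came from separate animals is not stated in the sources used here, so p-values measure the spread between these libraries, which may be technical. Values are FPKM, fragments per kilobase of transcript relative to all mapped fragments of a library, so levels of different genes can be compared per length.

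Each ribosome has a small subunit (40S), which holds the mRNA and reads its codons, and a large subunit (60S), which joins amino acids, and each subunit is built from rRNA and a fixed set of proteins. T cells that enter division after activation make many ribosomes. Mammalian ribosomal protein mRNAs begin with a C followed by a run of pyrimidines, the terminal oligopyrimidine (TOP) motif, through which mTORC1 and LARP1 set how well they are translated. mRNA levels alone, as measured here, do not report that translation.

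The cell type given for the libraries was checked against marker genes, which cannot check the treatment labels. The 5 CD8 T cell markers in the table (*Cd8a*, *Cd8b1*, *Cd3d*, *Cd3e* and *Cd3g*) summed to between 674 and 680.1 FPKM with DMSO and to between 776 and 805 FPKM with DADA, and all 5 were higher with DADA. Markers of B cells summed to at most 4.404 FPKM in any library, those of myeloid cells to at most 5.72 FPKM and those of erythroid cells to at most 0.426 FPKM. *Pax5* and *Blnk* were listed at 0 in every library, as were 4 of the 8 myeloid markers and 1 of the 6 erythroid ones. Of the 4 CD4 T cell markers, *Zbtb7b* was above 15 FPKM in both group means and *Cd4* was below 0.3 FPKM, while the sum of the 5 NK cell markers (330.0 to 346 FPKM with DMSO, 497 to 527 FPKM with DADA) was nearly all *Nkg7*, a gene that cytotoxic T cells also use. In bulk RNA, fewer cells of a type and less RNA per cell cannot be told apart.

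Ribosomal protein transcripts were lower with DADA as a group, by a small and uneven amount. Of the 81 members tested, 57 fell, 2 rose and 22 did not pass the test (limma, adjusted p under 0.05 over all genes tested), where 35.3% of all genes tested were lower and 30.9% higher by the same rule. The median log2 fold change of the members was -0.18, with quartiles of -0.26 and -0.09, against -0.02 over all genes tested. The values of the 4 DADA libraries lay wholly below those of the 4 DMSO libraries for 51 members and wholly above for 1, where all genes tested gave 32.2% and 28.4%. For 29 members the groups overlapped. Quantile normalization, the alternative that moved both most, gave 43 lower members and a median of -0.11, where 38.6% of all genes tested were lower. Among the members described one by one, it ended the calls of *Rps6*, *Rpl3*, *Rpl5*, *Rpl13a*, *Rpl7l1* and *Rpl37a* with a smaller fold change, and it brought *Rpl4* to -0.08. It also ended those of *Rpsa* (-0.23, standard error 0.134), *Rplp0* (-0.14, standard error 0.140) and *Rps2* (-0.31, standard error 0.157), whose standard errors were larger under it.

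**Figure D1:**
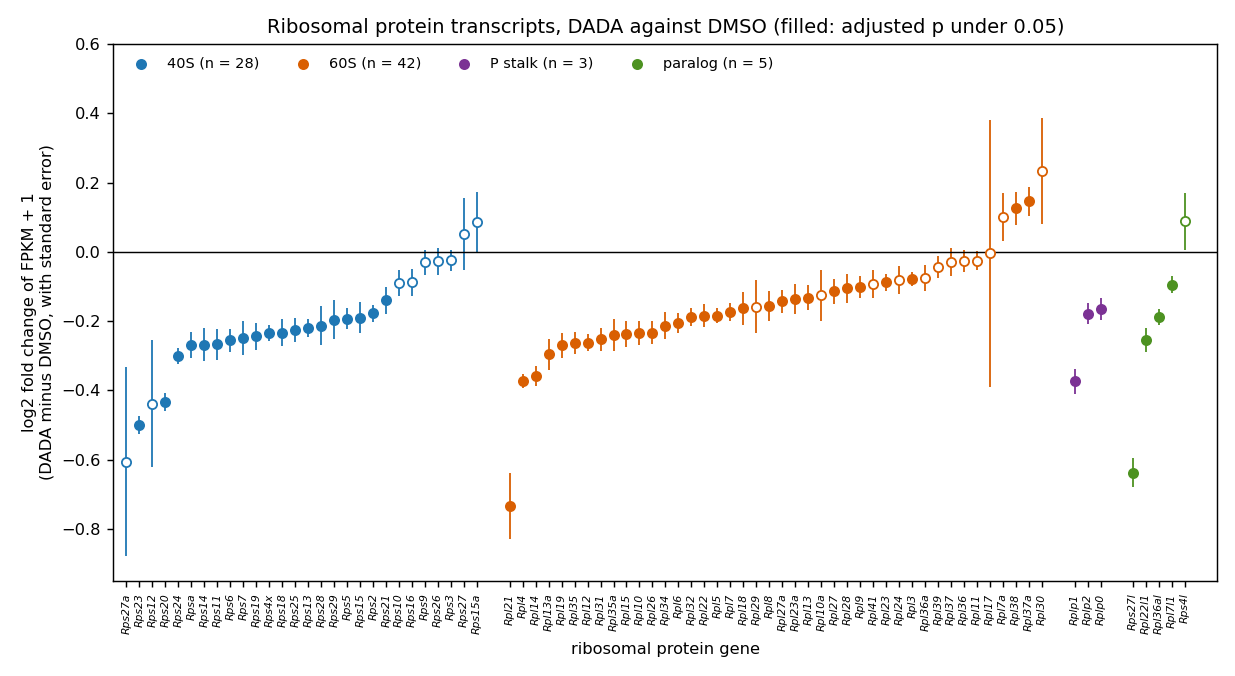
Log2 fold change of FPKM + 1 (DADA minus DMSO, vertical axis) with its standard error for 78 of the 81 tested ribosomal protein genes, ordered within the 40S proteins, 60S proteins, P stalk and paralogs. Filled points passed the test; 71 of the 78 lie below 0, and the 2 filled points above 0 are Rpl37a and Rpl38.

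The summed level shows the same difference per library. The members made up 19.96%, 19.74%, 19.50% and 19.37% of the summed FPKM of DMSO libraries 1 to 4, and 17.35%, 18.02%, 17.02% and 17.56% of DADA libraries 1 to 4. Every DADA library was therefore below every DMSO library, with means of 19.6% ± 0.261 (SD, n = 4) and 17.5% ± 0.419 (SD, n = 4). In FPKM the members summed to 89028 ± 1737 with DMSO and 77531 ± 2685 with DADA, which is 12.9% lower, while the sum over all rows was 2.19% lower. Against the DMSO mean of each gene, 74, 68, 73 and 73 of the 81 members were lower in DADA libraries 1 to 4. The DMSO libraries themselves had 16, 29, 55 and 65 members below that mean, so single control libraries also moved many members together, by a median of at most 0.04 on the log2 scale, against -0.24 to -0.13 in the DADA libraries.

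**Figure D2:**
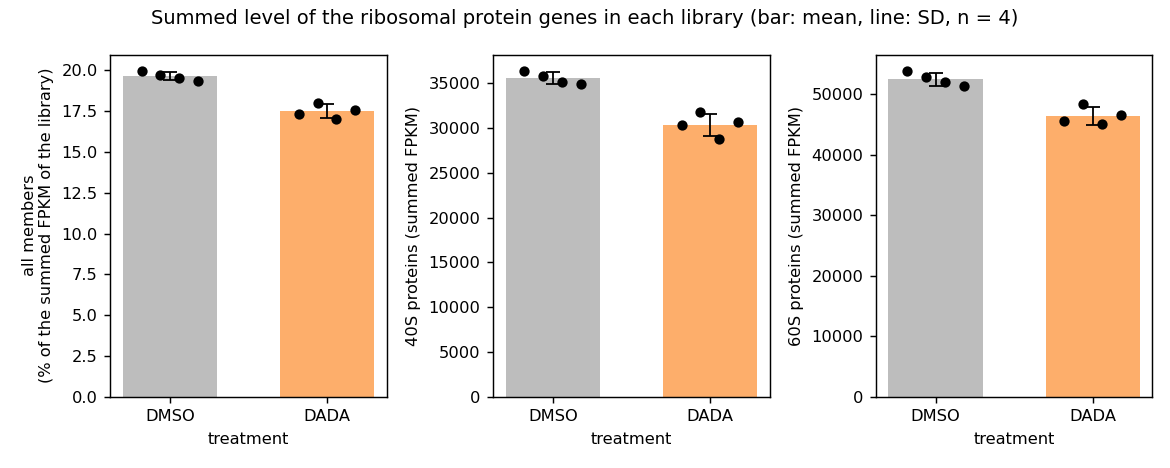
Summed level of the ribosomal protein genes in each library (points), with the mean (bar) and SD (line) of 4 libraries for DMSO and DADA, as a percent of the FPKM of the library and as summed FPKM of the 40S and 60S proteins. The 60S sum includes the P stalk, and both sums leave out paralogs. The 4 DADA libraries lie between 17.02% and 18.02%, all below the lowest DMSO library at 19.37%.

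Highly expressed genes as a class were also lower more often than higher, so the members were set beside them. This level was chosen after the data were seen. Of the 565 other genes averaging 100 FPKM or more, 304 (53.8%) were lower and 185 (32.7%) higher, with a median log2 fold change of -0.12. The fold changes of the members lay closer together, with an SD of 0.164 across genes against 0.530 for those genes. The 2 sets were not matched in level. In classes of coding length, the other genes had median levels of 147 to 172 FPKM, and the standard members of 222 to 1629 FPKM. Of the 81 members tested, 78 averaged 100 FPKM or more.

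**Figure D3:**
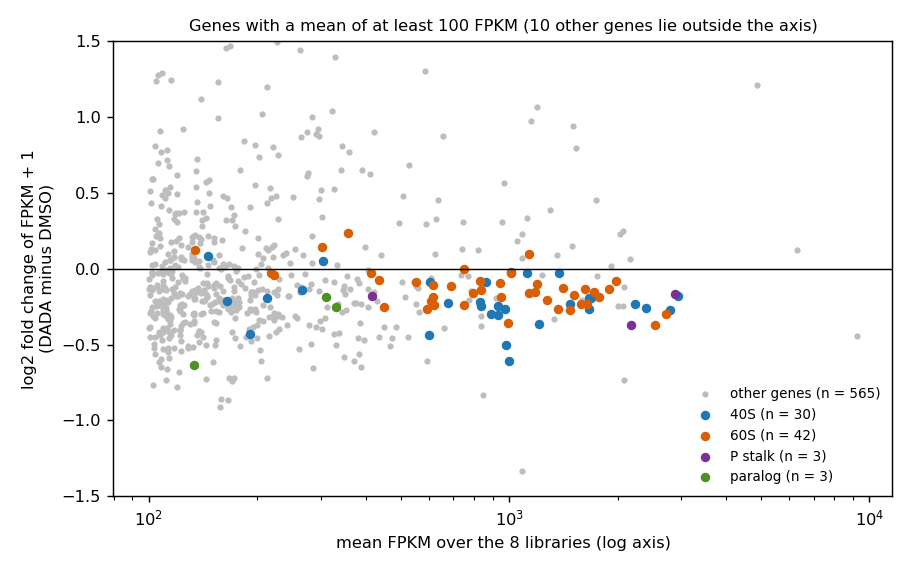
Log2 fold change of FPKM + 1 (vertical axis) against the mean FPKM over the 8 libraries (log axis) for genes averaging 100 FPKM or more, with the ribosomal proteins in colour and the 565 other genes in grey, of which 10 lie beyond 1.5 in either direction. The coloured points form a narrow band just below 0, while the grey points reach far up and down.

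Among the 40S proteins, 21 of 30 fell and none rose, with a median log2 fold change of -0.23. By the same rule, 35.3% of all genes tested were lower and 30.9% higher. *Rps23*, which lies at the decoding centre, was at 1132, 1184, 1143 and 1127 FPKM in DMSO libraries 1 to 4 and at 802, 844, 791 and 804 FPKM in DADA libraries 1 to 4. The groups were far apart beside their spread (log2 fold change -0.50, standard error 0.0267, limma, adjusted p = 1.05e-07). *Rps20*, a protein of the head of the subunit, was at 225, 221, 215 and 219 FPKM with DMSO and at 159.6, 168, 157 and 167 FPKM with DADA (log2 fold change -0.43, limma, adjusted p = 2.70e-07). In both the groups did not overlap, where 32.2% of all genes tested lay wholly below the DMSO libraries. Apart from *Rps6*, *Rpsa*, *Rps2* and *Rps4x*, the other called 40S proteins reported here had log2 fold changes between -0.30 (*Rps24*) and -0.14 (*Rps21*). The 9 that did not pass the test were *Rps3*, *Rps9*, *Rps10*, *Rps12*, *Rps15a*, *Rps16*, *Rps26*, *Rps27* and *Rps27a*.

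*Rps6* is the substrate of S6 kinase by which mTORC1 activity is commonly read at the protein level. Its transcript was at 2706, 2685, 2594 and 2485 FPKM with DMSO and at 2174, 2227, 2121 and 2240.1 FPKM with DADA (log2 fold change -0.26, standard error 0.0320, limma, adjusted p = 5.51e-05). *Rpsa*, also known as the laminin receptor, had 3253, 2989, 3047 and 2924 FPKM with DMSO and 2546, 2651, 2423 and 2513 FPKM with DADA (log2 fold change -0.27, limma, adjusted p = 1.41e-04). The most abundant member of all, *Rps2* at the mRNA entry channel, fell less, from 3119 ± 64.6 to 2757 ± 38.1 FPKM (log2 fold change -0.18). In each of these 3 the groups did not overlap, where 32.2% of all genes tested lay wholly below the DMSO libraries.

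Of the 43 proteins of the 60S subunit, 29 (67.4%) fell and 2 rose, with a median log2 fold change of -0.15, where 35.3% of all genes tested were lower. *Rpl21* had the largest fall of any called member: it was at 119, 113, 109 and 111 FPKM with DMSO, and DADA libraries 1 to 4 had 79.7, 59.2, 75.5 and 58.0 FPKM. It was also the lowest of the 76 standard members, with a mean of 90.5 FPKM, and its DADA libraries spread more than its DMSO libraries (log2 fold change -0.73, standard error 0.0955, limma, adjusted p = 7.43e-05). *Rpl4*, which lines the tunnel through which the new peptide leaves, was far tighter, at 2904, 2880.3, 2859.7 and 2854 FPKM with DMSO and 2217, 2259, 2202 and 2206 FPKM with DADA (log2 fold change -0.37, standard error 0.0201, limma, adjusted p = 1.18e-07). *Rpl14* fell from 1116 ± 7.01 to 871 ± 35.1 FPKM (log2 fold change -0.36). *Rpl13a*, among the 5 most abundant members with *Rps2*, *Rplp0*, *Rpsa* and *Rpl4*, fell from 3001 ± 130.4 to 2444 ± 133 FPKM (log2 fold change -0.30). *Rpl3*, at the centre where peptide bonds form, fell by much less, from 2039 ± 24.9 to 1932 ± 21.7 FPKM (log2 fold change -0.08, limma, adjusted p = 0.00662). Besides these and *Rpl5*, *Rpl7*, *Rpl10* and *Rpl22*, 20 more 60S proteins fell, by log2 fold changes between -0.27 (*Rpl19*) and -0.09 (*Rpl23*), of which *Rpl28* (adjusted p = 0.0470) was closest to the threshold. The 12 that did not pass the test were *Rpl7a*, *Rpl10a*, *Rpl11*, *Rpl17*, *Rpl24*, *Rpl29*, *Rpl30*, *Rpl36*, *Rpl36a*, *Rpl37*, *Rpl39* and *Rpl41*.

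Both members that rose belong to the 60S subunit and are short. *Rpl37a* was at 301, 295, 280.4 and 271 FPKM with DMSO and at 302, 325, 308 and 335 FPKM with DADA. Its lowest DADA library was just above its highest DMSO library (log2 fold change 0.15, standard error 0.0416, limma, adjusted p = 0.0110), and with quantile normalization the call was lost (log2 fold change 0.09, adjusted p = 0.0594). *Rpl38*, needed in the mouse embryo for translation of a subset of Hox mRNAs, had 118, 139.9, 127 and 131 FPKM with DMSO and 143, 141, 134 and 143 FPKM with DADA (log2 fold change 0.13, limma, adjusted p = 0.0377). Its groups overlapped, and the call was lost in 8 of 18 alternatives, among them without DMSO 1, where the log2 fold change was 0.08.

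The P stalk is the arm of the 60S subunit that draws in elongation factors. All 3 of its proteins fell, and in each the groups did not overlap. Of all genes tested, 35.3% were called lower and 32.2% lay wholly below the DMSO libraries. *Rplp0*, the base of the stalk, was at 3155, 3058, 3094 and 2899.6 FPKM with DMSO and at 2723, 2809.8, 2621 and 2726 FPKM with DADA (log2 fold change -0.17, limma, adjusted p = 0.00114). *Rplp1* had 2494, 2486, 2506 and 2377 FPKM with DMSO and 1874, 2039, 1811 and 1893 FPKM with DADA (log2 fold change -0.37, limma, adjusted p = 8.99e-06). Its partner *Rplp2*, with which it forms dimers, had 445, 457, 438 and 432 FPKM with DMSO and 378, 414, 387 and 386 FPKM with DADA (log2 fold change -0.18). *Rplp1* thus had about the fold change of *Rpl4*, and *Rplp0* and *Rplp2* were near the median of all members.

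*Rpl5* and *Rpl11* join the ribosome as one particle with an rRNA, and the same particle binds Mdm2 when ribosome assembly is disturbed. *Rpl5* was at 1011, 999, 1000.0 and 1032 FPKM with DMSO and at 887, 903, 870.5 and 897 FPKM with DADA (log2 fold change -0.18, standard error 0.0210, limma, adjusted p = 2.85e-05). *Rpl11* was at 1021, 1050.0, 1029 and 993 FPKM with DMSO and at 968, 1035, 1024 and 992 FPKM with DADA, and its groups overlapped (log2 fold change -0.03, standard error 0.0275, limma, adjusted p = 0.417). For *Rpl11* the sign turned when libraries were rescaled to the same total (0.01) or quantile normalized (0.01). The difference between *Rpl5* and *Rpl11* was not tested.

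Relative to their own sum with DMSO, the 40S proteins differed by more than the 60S proteins. In FPKM the 60S sum differed by more (-6137 against -5200, DADA minus DMSO). For these sums the P stalk was counted with the 60S proteins, and paralogs were left out. The 40S proteins summed to 35592 ± 653 FPKM with DMSO and 30392 ± 1219 FPKM with DADA, 14.6% lower. The 60S proteins summed to 52530 ± 1073 and 46393 ± 1514 FPKM, 11.7% lower. The ratio of the sums was 0.676, 0.678, 0.677 and 0.679 in DMSO libraries 1 to 4 and 0.666, 0.656, 0.640 and 0.658 in DADA libraries 1 to 4. All DADA ratios were below all DMSO ratios, and the lowest was that of DADA 3, the library with an unusually low value of *Rps27a*. This ratio was not tested.

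A few members varied widely between libraries of one group. They were picked after their values were seen, as the 5 of 78 members with a mean of at least 100 FPKM whose coefficient of variation was above 15% in a group (9 of 565 other genes at that level). *Rpl21*, with a mean of 90.5 FPKM, lay below that level, and its coefficient of variation was 16.3% among DADA libraries. *Rpl17* was at 583, 891, 421 and 1073 FPKM with DMSO and at 334, 1006, 1049.8 and 656 FPKM with DADA (log2 fold change -0.00, standard error 0.385). *Rps27a*, which is made as a fusion with ubiquitin, was at 1235, 1205, 1033 and 1217 FPKM with DMSO and at 949, 1044, 379.9 and 924 FPKM with DADA. It was not called with all libraries (log2 fold change -0.61, limma, adjusted p = 0.0740), and without DADA 3 it was called at a smaller log2 fold change of -0.27 (limma, adjusted p = 0.00680). It was also called without DADA 2, at -0.75 (limma, adjusted p = 0.0429), and its log2 fold change was negative in all 18 alternatives, 3 of which called it.

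*Rps12* was lowest in library 3 of both groups, with 743, 780.0, 499.6 and 737 FPKM with DMSO and 497, 643, 361 and 548 FPKM with DADA (log2 fold change -0.44, limma, adjusted p = 0.0561). Its log2 fold change was negative in all 18 alternatives, between -0.59 and -0.28, and 3 of them called it, among them those without DMSO 3 (-0.59) and without DADA 2 (-0.56). *Rpl30* was at 319.7, 331, 349 and 302 FPKM with DMSO and at 424, 259, 430.4 and 451 FPKM with DADA, so that 3 DADA libraries were above and 1 was below all DMSO libraries. With all libraries it was not called (log2 fold change 0.23, limma, adjusted p = 0.201), and without DADA 2 it was called higher (0.42, limma, adjusted p = 5.79e-05). Ribosomal protein genes have many near-identical copies in the mouse genome, so values of single members are uncertain where reads could be assigned to either. How far this touches these 5 or *Rpl21* was not tested beyond the row *Rps27rt*. Over the 78 members with a mean of at least 100 FPKM, the coefficient of variation had a median of 3.56% among DMSO libraries and of 4.13% among DADA libraries, against 2.35% and 2.43% for the 565 other genes at that level.

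Some paralogs can replace a standard protein in the ribosome. Of the 8 paralogs among the members, 5 were expressed at a level that could be tested. Of these 5, 4 fell and none rose, where 35.3% of all genes tested were lower and 30.9% higher. *Rps27l*, a p53 target and the paralog of the 40S protein *Rps27*, was at 164, 167, 156 and 165 FPKM with DMSO and at 107, 109.8, 95.3 and 106 FPKM with DADA (log2 fold change -0.64, standard error 0.0424, limma, adjusted p = 5.26e-07). Its groups lay well apart. *Rps27* itself was at 323, 359, 276 and 245 FPKM with DMSO and at 292, 335, 297 and 311 FPKM with DADA (log2 fold change 0.05, limma, adjusted p = 0.677), with a sign that turned to -0.04 without DMSO 4.

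The ratio of a paralog to its standard protein within a library does not depend on how libraries are scaled. *Rps27l* was 50.7%, 46.6%, 56.6% and 67.5% of *Rps27* in DMSO libraries 1 to 4 and 36.6%, 32.7%, 32.1% and 34.1% in DADA libraries 1 to 4. The groups did not overlap, and the mean log2 ratio was lower by -0.69 with DADA (two-sided exact permutation test over 70 assignments, p = 0.0286, the smallest this design allows, and 0.0952 after Benjamini-Hochberg adjustment over 5 pairs). This ratio therefore did not pass the threshold once adjusted. The spread of the DMSO ratios came with a second row, *Rps27rt*, a copy of *Rps27* that was named after its values were seen. *Rps27rt* was at 35.3, 25.98, 83.4 and 109 FPKM in DMSO libraries 1 to 4, high where *Rps27* was low, and at 42.7, 40.3, 32.3 and 23.2 FPKM in DADA libraries 1 to 4. The sum of *Rps27* and *Rps27rt* was steadier in the DMSO libraries, at 364 ± 14.1 FPKM, and was 343 ± 21.6 FPKM with DADA. Against that sum, *Rps27l* was at 45.7%, 43.5%, 43.5% and 46.8% with DMSO and at 32.0%, 29.2%, 28.98% and 31.7% with DADA, a difference of -0.56 in the mean log2 ratio, given as a description since the sum was chosen with its values in view.

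**Figure D4:**
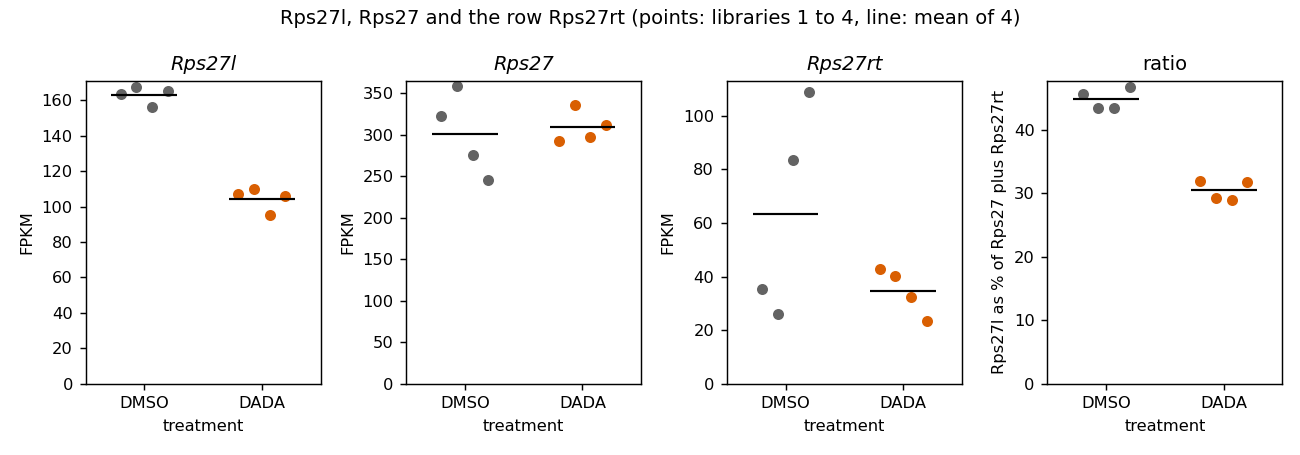
FPKM of Rps27l, Rps27 and the row Rps27rt, and Rps27l as a percent of the sum of Rps27 and Rps27rt, in each of the 4 DMSO and 4 DADA libraries (points, with the mean as a line, vertical axes from 0). Rps27l is lower in every DADA library, at most 109.8 FPKM against at least 156 FPKM, while Rps27 overlaps between the groups and Rps27rt is highest in DMSO libraries 3 and 4.

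The ratios of the other tested pairs differed by less, by at most 0.36 in the mean log2 ratio (*Rps4l* to *Rps4x*, higher with DADA). None passed after adjustment over 5 pairs. The pairs of *Rpl36al* and *Rps4l* had the same adjusted p as that of *Rps27l* (exact permutation, 0.0952). *Rpl22l1* fell from 360.5 ± 16.7 to 302 ± 8.63 FPKM (log2 fold change -0.26), and *Rpl22*, which is needed for the development of most T cells, fell from 654 ± 21.1 to 576 ± 23.2 FPKM (log2 fold change -0.18). Their ratio was 55.1% ± 1.91 with DMSO and 52.4% ± 1.89 with DADA (SD, n = 4, two-sided exact permutation test, p = 0.114). *Rpl36al* fell from 330.5 ± 1.73 to 289.9 ± 7.65 FPKM (log2 fold change -0.19), whereas *Rpl36a* was at 448 ± 14.8 and 425 ± 20.7 FPKM and was not called (log2 fold change -0.08, limma, adjusted p = 0.0972). Their ratio was 73.8% ± 2.61 and 68.3% ± 2.95 (SD, n = 4, two-sided exact permutation test, p = 0.0571). *Rpl7l1*, a nucleolar relative of *Rpl7*, was at 49.5 ± 0.875 and 46.3 ± 1.04 FPKM (log2 fold change -0.10, limma, adjusted p = 0.00702), a call that was lost when libraries were rescaled to the same total (adjusted p = 0.0723) or quantile normalized (adjusted p = 0.0550).

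*Rpl7* fell from 1604 ± 39.8 to 1422 ± 34.0 FPKM (log2 fold change -0.17), and the ratio of *Rpl7l1* to it was 3.09% ± 0.116 with DMSO and 3.26% ± 0.114 with DADA (SD, n = 4, two-sided exact permutation test, p = 0.0857). *Rps4l* was at 2.46 ± 0.291 and 2.68 ± 0.316 FPKM (limma, adjusted p = 0.370), far below *Rps4x*, and its ratio to *Rps4x* was 0.101% ± 0.0124 with DMSO and 0.130% ± 0.0154 with DADA (SD, n = 4, two-sided exact permutation test, p = 0.0571). The remaining 3 paralogs, known from testis or muscle, were nearly silent in both groups. *Rpl10l* was listed at 0 in all 8 libraries, *Rpl3l* was listed at 0 in 7 and at 0.0532 FPKM in DADA 4, and *Rpl39l* lay between 0.605 and 1.17 FPKM. The standard proteins of these pairs were at 1784 ± 63.6 and 1516 ± 62.9 FPKM for *Rpl10*, at the levels given above for *Rpl3*, and at 226 ± 5.88 and 219 ± 8.27 FPKM for *Rpl39*, which was not called (log2 fold change -0.04, limma, adjusted p = 0.239).

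Of the 4 members on the X chromosome, *Rpl10* (log2 fold change -0.23) and *Rps4x* (-0.23) fell, and *Rpl36a* and *Rpl39* were not called. By the same rule, 35.3% of all genes tested were lower. The level of *Rps4x* fell from 2425 ± 14.2 to 2061 ± 55.5 FPKM. Ribosomal proteins with other symbols were looked at beside the members. *Rps3a1* fell from 2247 ± 59.8 to 1896 ± 45.6 FPKM (log2 fold change -0.25) and *Rack1*, a scaffold on the 40S subunit, from 1710.3 ± 28.7 to 1483 ± 37.8 FPKM (-0.21). *Fau*, a fusion of a ubiquitin-like protein with a 40S protein, was called higher, from 707 ± 44.0 to 773 ± 44.5 FPKM (log2 fold change 0.13, limma, adjusted p = 0.0475), with overlapping groups, and the call was lost in 9 of 18 alternatives.

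Rows named as copies of a member were mostly far below it. *Rpl35rt*, at 18.9% of the level of *Rpl35*, fell from 120.0 ± 7.47 to 104 ± 7.82 FPKM (log2 fold change -0.21), and *Rpl10-ps3*, at 4.87% of *Rpl10*, from 86.1 ± 3.46 to 74.5 ± 1.37 FPKM (-0.21). *Rps27rt* was not called (log2 fold change -0.66, standard error 0.409, limma, adjusted p = 0.182). Of the 4 pseudogene rows tested, 3 fell and none rose, where 35.3% of all genes tested were lower and 30.9% higher. Across the alternatives, 2 or 3 of these 4 rows were called lower. Reads of such copies and of their parent cannot be told apart with certainty.

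Levels per length differed widely between members, from 90.5 FPKM for *Rpl21* to 2938 FPKM for *Rps2* among the standard proteins, although a ribosome holds most of them in equal number. Across the 80 tested members with a known coding length, the level was higher for longer ones (Pearson's r = 0.577, Spearman's rho = 0.688), whereas across 561 other genes of at least 100 FPKM it did not (r = -0.103, rho = -0.0801). These are descriptions across genes of the same libraries. The fold change was only weakly related to the coding length (r = -0.0905, rho = -0.132) and to the level (r = -0.176, rho = -0.233, n = 81). The 9 standard members with at most 300 coding bases, bins chosen after the data were seen, stood at a median log2 fold change of -0.04. Of these 9, 3 were lower (*Rps21*, *Rps28* and *Rps29*) and 2 higher, where 35.3% of all genes tested were lower and 30.9% higher. The 26, 18 and 23 members in the bins up to 450, up to 600 and above 600 coding bases all had medians of -0.19. Among the 21 other abundant genes with at most 300 coding bases the median was 0.03, with 7 lower and 7 higher.

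The promoter windows show how far the members share the pyrimidine-rich start at which TOP mRNAs begin. RefSeq windows (GRCm38.p6, 250 bases before to 50 after each annotated start) were matched by symbol to 63 of the 84 members. Shown are 15 bases on either side of the start, on the transcript strand, 5′ to 3′, for members that fell (*Rps6*, *Rpl14*, *Rplp2*, *Rps23*) and for the 2 that rose, with the longest run of C or T in capitals.
Rps6 (chr4:86857353-86857382, minus strand): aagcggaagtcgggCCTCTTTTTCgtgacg
Rpl14 (chr9:120571502-120571531, plus strand): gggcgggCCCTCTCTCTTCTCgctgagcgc
Rplp2 (chr7:141447636-141447665, plus strand): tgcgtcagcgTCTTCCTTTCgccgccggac
Rps23 (chr13:90923107-90923136, plus strand): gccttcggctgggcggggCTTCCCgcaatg
Rpl38 (chr11:114668565-114668594, plus strand): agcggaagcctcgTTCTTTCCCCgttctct
Rpl37a (chr1:72711245-72711274, plus strand): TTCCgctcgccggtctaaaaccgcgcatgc

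*Rps6*, *Rpl14*, *Rplp2* and *Rpl38* have a run of 10 or more pyrimidines across or beside the start, and *Rps23* and *Rpl37a* have shorter ones, so the run was present in members of both directions. A run of at least 8 C or T within 25 bases of the start was found in 33 of the 63 members (52.4%) in 22.3% of all 27025 genes with such a window and in 22.5% of the 8216 of them that were tested here. A C followed by 4 C or T exactly at the annotated start was found in 13 members (20.6%) in 3.01% of all genes and in 2.92% of those tested. The letters CCGGAAG, searched on both strands of the 300 bases, were in 25 members (39.7%) in 9.93% of all genes and in 23.0% of those tested, which are the genes expressed in these cells. Members with and without the 8-base run had medians of -0.20 (21 of 32 tested lower) and -0.18 (21 of 28 lower). Among all genes tested, those with the run had a median of -0.01 and 33.8% were lower, and those without it -0.03 and 36.7%. Annotated starts can lie some bases from the start that cells use, so a missing run says only that the letters are not in the window.

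Other parts of the translation machinery were lower as well, where 35.3% of all genes tested were called lower and 30.9% higher. Of 77 ribosome biogenesis factors, which make and assemble the subunits, 70 fell and 2 rose, with a median log2 fold change of -0.41, and the largest fall was in *Pno1*, a factor of 40S maturation, from 83.0 ± 2.42 to 42.5 ± 1.31 FPKM (-0.95). A list of ribosomal protein chaperones, which also held nuclear import receptors and the histone chaperone *Nap1l1*, had 9 of 11 lower and 1 higher. Its median was -0.32, and its largest fall was in *Bccip*, from 80.0 ± 1.10 to 52.5 ± 0.856 FPKM (-0.60). Of 47 translation factors, mostly of initiation and elongation but also of termination and recycling, 35 fell and 5 rose (median -0.18). The largest changes were in *Eif2b3* (-0.61) and *Eif1b* (0.45). The 78 mitochondrial ribosomal proteins, which translate the mitochondrial genome, had 49 lower and 4 higher (median -0.21), with the largest fall in *Mrps10* (-0.56). All lists share the same 8 libraries, and their medians were not tested against each other.

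Of 21 TOP transcripts that encode no ribosomal protein, 13 fell and 1 rose, where 35.3% of all genes tested were lower. The median of the 21 was -0.18, the same to 2 decimals as that of the members. *Nap1l1* had the largest fall, from 461 ± 6.75 to 332 ± 9.06 FPKM (log2 fold change -0.47). *Eef2*, the elongation factor that moves the ribosome along, was the one that rose, from 2118 ± 30.3 to 2209.7 ± 43.3 FPKM (log2 fold change 0.06, limma, adjusted p = 0.0365), a call that did not hold in every alternative. Of the 21, 13 are also among the 47 translation factors (61.9% and 27.7% of each list), *Npm1* is among the ribosome biogenesis factors and *Nap1l1* among the chaperones, so these lists are not separate sets of genes. Of 15 genes known to regulate TOP mRNAs or ribosomal protein transcription, 8 fell and 2 rose. *Cnbp*, which binds TOP mRNAs, fell from 503 ± 7.94 to 369 ± 5.87 FPKM (-0.45). *Myc*, a transcription factor that promotes ribosome production, rose from 121 ± 4.196 to 172 ± 4.28 FPKM (log2 fold change 0.50, limma, adjusted p = 2.13e-07), and its relative *Mycn* from a low level, 0.706 ± 0.0638 FPKM, to 2.50 ± 0.0925 FPKM (1.04).

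**Figure D5:**
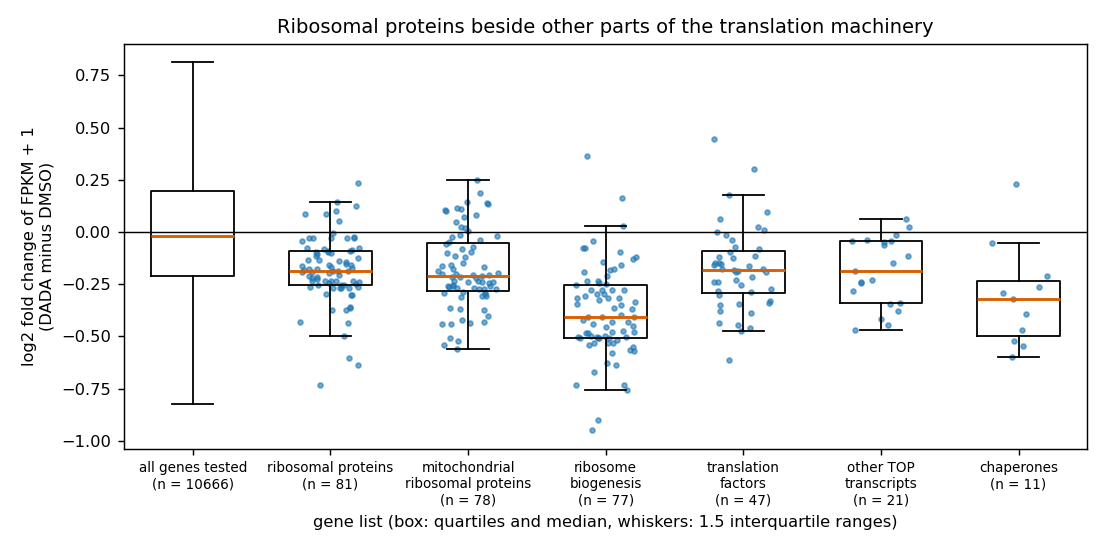
Log2 fold change of FPKM + 1 (DADA minus DMSO, vertical axis) for all genes tested, the 81 ribosomal proteins and 5 other lists, with each gene of a list as a point, boxes for quartiles and median, and whiskers of 1.5 interquartile ranges. The box of the ribosomal proteins is narrow around a median of -0.18, and that of the 77 ribosome biogenesis factors lies lowest, at -0.41.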

How the data were processed

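RNA was extracted with TRIzol and sequenced as pairs of 150 bp. The authors deposited 1 FPKM value per gene and library, with no counts. The submitters' processing notes name HISAT2 2.0.5, StringTie 1.3.3, SAMtools 0.1.18, Picard 1.41, CASAVA 1.8.2 and FastQC 0.11.9, and both GRCh38 and GRCm39, with no role for either. Depth was therefore estimated from steps between low values, at 13670000 to 16210000 fragments with DMSO and 15360000 to 18700000 with DADA, but only 28.9% to 41.9% of those values lay within 0.1 of a whole number, so no count test was run.

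Groups followed the sample titles. Values were tested as log2(FPKM + 1) with limma 3.58.1 in R 4.3.3 (lmFit, treatment as the only term, eBayes with a trend, Benjamini-Hochberg over 10666 genes with at least 1 FPKM in at least 4 libraries). A call is an adjusted p under 0.05. Fold changes understate the change of low genes. The fit was also run on simulated data for DADA against DMSO, in which the smallest changes set were recovered less often than the larger ones. Paralog ratios were compared by two-sided exact permutation. Named members were up to 8 called members per direction, by size of change (only 2 rose), the 5 most abundant, the P stalk, *Rpl5*, *Rpl11*, *Rps6*, *Rpsa*, all paralog pairs and all members below the filter, and of other lists the called gene with the largest change in each direction. A few selected genes are not reported here. Any other gene was picked with its values in view. Coding lengths came from GENCODE M21 and promoter windows from RefSeq GRCm38.p6, since no genome of the files' build was used here. The members and lists were chosen with earlier results of these data known. Alternatives were a pseudocount of 0.1, no filter, a mean of at least 5 FPKM, TPM, median-ratio scaling with and without the members, eBayes without the trend, quantile normalization, the replicate block and each library left out. Leaving out assembled transcripts and adding *Rps27rt* to *Rps27* were chosen after seeing the data.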

Additional observations from a re-analysis of the deposited data

Results flagged for a closer look

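In 2 of 75 groups of 4 libraries examined (named members, paralog ratios and the summed share), 1 library lay far from the other 3, by the gap to the nearest library divided by the range of the group. Chance flags about 1 in 20 such groups. *Rplp1* with DMSO had a ratio of 0.845: DMSO 4 was at 2377 FPKM and the other DMSO libraries were between 2486 and 2506 FPKM, all above the DADA libraries. *Rpl3l* with DADA had a ratio of 1.00, because DADA 4 was at 0.0532 FPKM and the other libraries were listed at 0.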

How the results depend on the processing

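Across the 18 alternatives, between 43 and 63 of the members were called lower and 1 or 2 higher, and 40 were called lower in all of them. Of all genes tested in each alternative, 23.9% to 40.1% were called lower and 24.8% to 33.8% higher. The count of lower members fell furthest, to 43, with quantile normalization, where 38.6% of all genes tested were lower. There the median log2 fold change of the members moved from -0.18 to -0.11 (all genes -0.05), and the cause was not tested. Only 1 member was called higher without the filter on low values and with eBayes without the trend. With each library left out in turn, 55 to 63 members were lower, 1 to 2 were higher, and the median lay between -0.20 and -0.17. Each 40S, 60S, P stalk and paralog median, and that of every other list, stayed below 0. Among 539 alternatives of named members, 514 kept direction and call, 18 lost the call, 3 gained it and 4 changed sign: *Rpl11* rescaled to the same total (0.0055) or quantile normalized (0.0085), *Rps4l* quantile normalized (-0.036), and *Rps27* without DMSO 4 (-0.042, against up to 0.14 with another library left out).

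The replicate numbers are not said to pair libraries, and the deviations of libraries with the same number correlated at 0.0953, -0.12, -0.0877 and 0.0751 over all genes (0.472, 0.322, -0.0753 and -0.0526 over the members) for numbers 1 to 4. With the replicate number as a block, 61 members were lower and 2 higher, with a median of -0.18, and *Rps12* (limma, adjusted p = 0.000221) and *Rps27a* (0.0292) were called lower. No library correlated best with its own number over all genes. For the ratio of *Rps27l* to *Rps27* (-0.69) the block could give no p below 0.125. With each library left out, that ratio stayed between -0.77 and -0.59, and the ratio of *Rpl36al* to *Rpl36a* between -0.14 and -0.086, reaching p = 0.0286 (exact permutation) without DMSO 2. The summed share differed by -2.16 percentage points, by -2.23 without assembled and mitochondrially encoded transcripts in the denominator, and by -2.33 to -1.999 with each library left out. Depth is known only as an estimate, 4 libraries per group limit what can be seen of members that changed by less than 0.1, and 163 assembled transcripts were among the genes tested.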
